A study of Mus musculus with 8 samples.

Results

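The genes described here are 10 that mark the brown adipocyte: Ucp1, Cidea, Prdm16, Ebf2, Zic1, Lhx8, Cox7a1, Cox8b, Otop1 and Kcnk3. They were taken by symbol, whatever their values, from a table of 49452 mouse genes, and each symbol matched 1 gene. The study asked which transcripts follow the activity of brown adipose tissue (BAT), and profiled BAT of male C57BL/6 mice by RNA-Seq in 8 libraries. Groups were 22 °C (constant housing, replicates 4 and 7), 4 °C (24 h, replicates 2 and 11), NCD (the control feeding group, replicates 6 and 8) and HFD (high-fat diet, replicates 2 and 6), all of the same strain with no transgene. Mice of the temperature groups were 10 to 12 weeks old, and the 24 h at 4 °C were 20 h of cold and then 4 h of fasting. Whether mice kept at 22 °C were fasted too is unclear, so cold and fasting cannot be told apart. Mice of the diet groups were 32 weeks old after 28 weeks of feeding, and the labels name the control food as chow where the methods name a control diet. Nothing in the labels says whether a library came from 1 mouse or from pooled mice, so the p-values measure the spread between these libraries.

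Brown adipocytes burn fatty acids and glucose to release heat. Their hallmark is UCP1, a carrier of the inner mitochondrial membrane that lets protons return to the matrix without ATP synthesis, and whose gene is switched on by sympathetic signals in the cold. The other members cover the rest of the cell's make-up. PRDM16 and EBF2 are transcription regulators that set and hold brown fat fate, ZIC1 and LHX8 are transcription factors that set classical brown fat apart from white and beige fat, CIDEA is a lipid droplet protein, COX7A1 and COX8B are tissue-restricted subunits of respiratory complex IV, OTOP1 is a proton channel and KCNK3 is a potassium leak channel that restrains thermogenesis.

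Upstream sequence was looked at for the members whose levels the results turn on. Of the 10 members, 7 had an entry in the RefSeq promoter table (GRCm38.p6), and Cidea, Ebf2 and Kcnk3 did not. The 250 bases before the start in that table are shown for Ucp1 (chr8:83290098-83290347, plus strand), the member with the largest difference in the cold, and for Cox7a1 (chr7:30183921-30184170, plus strand) and Cox8b (chr7:140900447-140900696, minus strand), the pair of members whose levels ran closest. For Ucp1 and Cox7a1 that start differs by some bases from the gene positions given further below, which come from the authors' table, and the end of the Cox7a1 window lies inside the gene as placed there. The sequences are written 5′ to 3′, with matches to the searched motifs in capitals.
Ucp1: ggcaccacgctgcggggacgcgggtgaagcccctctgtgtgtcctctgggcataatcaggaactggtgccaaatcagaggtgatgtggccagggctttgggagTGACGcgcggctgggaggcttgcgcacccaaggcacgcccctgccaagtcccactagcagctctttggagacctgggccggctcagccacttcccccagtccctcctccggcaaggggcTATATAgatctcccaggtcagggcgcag
Cox7a1: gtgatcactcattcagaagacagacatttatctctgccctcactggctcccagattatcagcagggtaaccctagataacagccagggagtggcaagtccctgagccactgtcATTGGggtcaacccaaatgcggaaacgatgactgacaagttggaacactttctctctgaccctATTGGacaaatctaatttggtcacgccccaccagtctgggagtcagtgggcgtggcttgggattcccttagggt
Cox8b: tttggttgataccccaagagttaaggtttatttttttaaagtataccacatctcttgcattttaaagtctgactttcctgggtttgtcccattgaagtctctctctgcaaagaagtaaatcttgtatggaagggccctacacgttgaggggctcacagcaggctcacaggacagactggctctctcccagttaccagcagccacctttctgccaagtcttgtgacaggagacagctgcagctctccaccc
The motifs searched on both strands were the TATA box TATAAA with its variant TATATA, the core TGACG of a cyclic AMP response element, the EBF core CCCNNGGG, the CCAAT box and the GC box GGGCGG, none of which overlapped another in these windows. Ucp1 held TATATA at 28 to 23 bases before its start and TGACG at 147 to 143 bases. Cox7a1 held CCAAT on the minus strand, so printed here as its reverse complement, at 137 to 133 and at 74 to 70 bases before its start. Cox8b held none of the 6. Of 32851 promoters of this length, 5.25% held TATATA, 17.8% held TGACG and 33.8% held CCAAT, and among the 7 members with an entry TATATA and TGACG were each found in 1 and CCAAT in 3 (Prdm16, Zic1 and Cox7a1). A match is a match of letters and no measure of binding.

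Levels are FPKM, fragments per kilobase of transcript, scaled to the mapped fragments of the library, so they can be compared roughly between genes, least surely for short transcripts. Between 23543 and 32686 genes were above 0 per library. The spacing of low values put 1 fragment on a transcript of 2000 bases at 0.00434 to 0.00596 FPKM, so even Lhx8, the lowest member, rested on about 101 to 290 fragments per library, if all lay on its longest transcript. Both 22 °C libraries and NCD replicate 6 list all 2613 X-linked genes at 0 and have at most 1 of 37 mitochondrial genes above 0, against 779 to 1175 X-linked and 15 mitochondrial genes above 0 in the other 5. A listed 0 may thus stand for a missing estimate, and this gap coincides with 22 °C against 4 °C. The description labels carry 1 prefix in both 22 °C libraries, both 4 °C libraries and NCD replicate 6, and another in NCD replicate 8 and both HFD libraries. No member is X-linked or mitochondrial, and none was listed at 0. Libraries also differed in a satellite-rich gene model, Gm10800, which stood at 447 to 15726 FPKM in 22 °C replicate 4, 4 °C replicate 11, NCD replicate 8 and HFD replicate 2, and at 0.0998 to 4.13 FPKM in the other 4. Each group thus held 1 library of each kind. General adipocyte markers (9 genes, among them Adipoq, Fabp4 and Plin1) summed to 5856 to 13242 FPKM, and the 5 beige markers (such as Tmem26 and Tbx1) to 0.401 to 2.65 FPKM.

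In the cold, Ucp1 differed most among the members. Its mean was 5.57 times that at 22 °C, and Kcnk3 stood at 2.03 times. The terminal oxidase subunit Cox7a1, the channel Otop1, the transcription factor Zic1 and, narrowly, Cidea also stood above both 22 °C libraries in each 4 °C library, while the fate regulators Prdm16 and Ebf2 were lower in both. Lhx8 and Cox8b overlapped. In this limma fit none of the 10 members (0 of 10) passed the threshold of an adjusted p under 0.05 with at least a 2-fold change. Of the 17477 genes tested, 252 passed (1.44%). An unadjusted p under 0.05 was found for 2 of the 10, Ucp1 and Kcnk3, and for 4280 of the 17477 genes. Both cold libraries lay above both 22 °C libraries for 6 members, where 37.9% of all genes did so, and below for 2, where 20.6% did so. The median log2 fold change was 0.30 over the members, 0.07 over all genes tested and 0.22 over mRNA genes at 1 FPKM or more, and the members' log2 fold changes below are given as fitted and, to be read against that last shift, after median centring.

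Under HFD, Cidea and Kcnk3 were lower in both HFD libraries than in both NCD libraries, at 0.467 and 0.557 times the NCD mean, and Prdm16 was higher in both by a small margin. Ucp1 and the 6 others overlapped. None of the 10 members (0 of 10) passed the threshold, against 12 of 17543 genes (0.0684%). In limma 0 of the 10 had an unadjusted p under 0.05, against 2532 of the 17543 genes. Both HFD libraries lay above both NCD libraries for 1 member, where 39.9% of all genes did so, and below for 2, where 5.8% did so. The median log2 fold change of the members was -0.15, against 0.18 over all genes tested and 0.30 over mRNA genes at 1 FPKM or more.

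**Figure D1:**
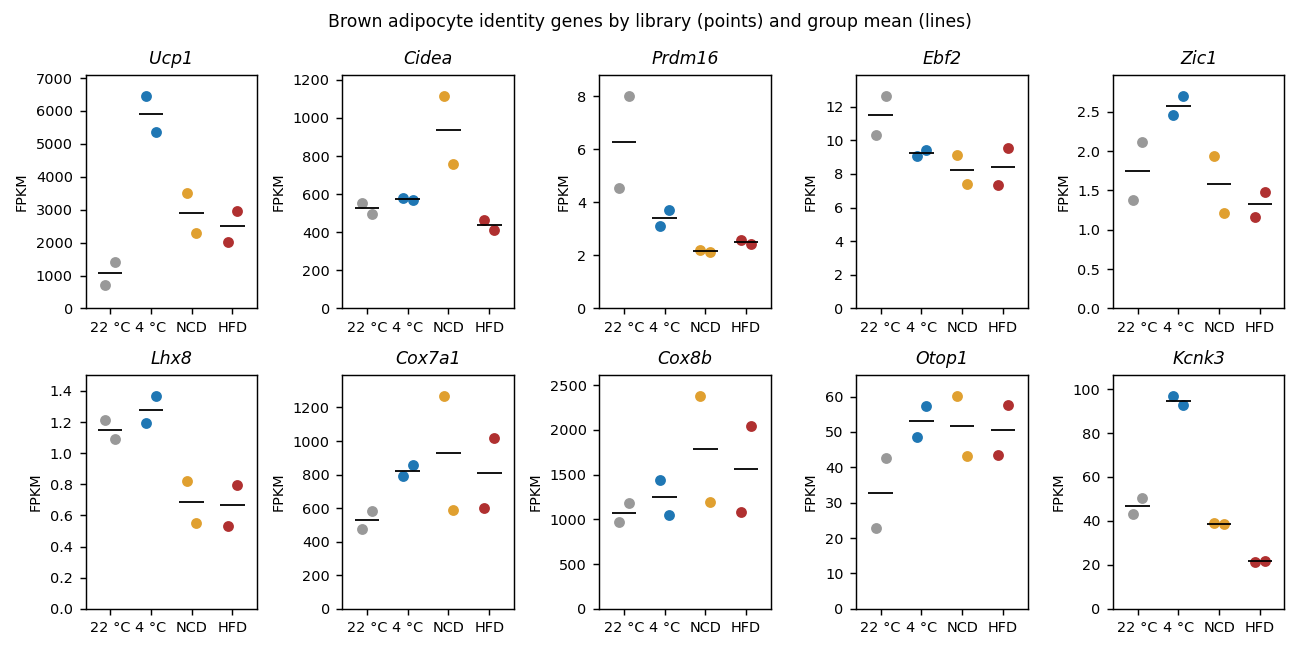
FPKM of each member (vertical axis, from 0, a separate scale for each gene) in the 4 groups (horizontal axis), with 1 point per library and a line at the mean of the 2 libraries. Ucp1 and Kcnk3 are highest at 4 °C, Prdm16 and Ebf2 are highest at 22 °C, and Cidea is highest in NCD.

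Ucp1 (ENSMUSG00000031710, chr8:83290352-83298452 of GRCm38, plus strand) stood at 699 and 1427 FPKM at 22 °C, at 6462 and 5371 FPKM at 4 °C, at 3519 and 2299.8 FPKM in NCD and at 2026 and 2976 FPKM in HFD. The groups were ordered 22 °C, HFD, NCD and 4 °C from low to high, with NCD and HFD overlapping and the other neighbours apart. Group means were 1063 ± 514, 5916 ± 771, 2909 ± 862 and 2501 ± 672 FPKM for 22 °C, 4 °C, NCD and HFD (SD, n = 2 each). Cold against 22 °C, its log2 fold change was 2.56 (SE 0.51, 95% interval 1.28 to 3.84), and 2.30 after median centring. Its adjusted p of 0.0646 (limma, Benjamini-Hochberg) missed the threshold and ranged from 0.0271 to 0.386 over 16 tested alternatives. It passed with a filter at 1 FPKM (0.0437), median centring (0.0341), library kind by Gm10800 as a covariate (0.0271). It also passed without 22 °C replicate 7 (0.0371), a fit that leaves 1 library at 22 °C and takes the spread from the 4 °C pair. Keeping X, Y and mitochondrial genes also brought the adjusted p to 0.0491, but this adds genes listed at 0 in both 22 °C libraries, and the unadjusted p of Ucp1 went from 0.00328 to 0.00377. The direction was the same in each of 18 alternatives. Because the tissue was taken in bulk, fewer cells of a type and less RNA per cell cannot be told apart here or for the other members.

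Among 20515 autosomal mRNA genes, Ucp1 ranked 24 and 5 by FPKM in the 22 °C libraries and 2 in both 4 °C libraries. It made up 0.365% and 0.736% of the autosomal mRNA FPKM at 22 °C, and 2.24% and 2.27% at 4 °C. In the diet groups the share was 1.41% and 1.38% in NCD against 0.992% and 1.16% in HFD. On this share both HFD libraries lay below both NCD libraries, whereas on FPKM they overlapped. The HFD to NCD log2 fold change of FPKM was -0.21 (SE 0.83, 95% interval -2.15 to 1.73, limma adjusted p 0.930). It came to -0.57 after median centring, -0.38 under both rescalings to a common sum, 0.0091 under quantile normalization and -1.20 (SE 1.18) with a muscle marker score as a covariate. An interval this wide includes a several-fold lower level and a several-fold higher one.

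Set against general adipocyte transcripts in the same library, Ucp1 was still higher in both 4 °C libraries. The summed FPKM of the 9 general adipocyte markers was itself higher in the cold, at 7458 to 9199 at 22 °C and 10969 to 13242 at 4 °C, with 5856 to 10070.2 in NCD and 7885 to 10500.1 in HFD. Much of that difference lay in Fabp4 (3769 and 3472 FPKM at 22 °C, 7595 and 6918 FPKM at 4 °C), and the sum of the other 8 overlapped, at 5429.6 and 3987 at 22 °C against 5646 and 4051 at 4 °C. Of the 9 markers 6 were higher in both 4 °C libraries, where 37.9% of all genes were. The 3 others (Adipoq, Car3 and Cebpa) were lower in both, where 20.6% of all genes were. By limma 0 of the 9 passed, and 1 had an unadjusted p under 0.05, as did 4280 of 17477 genes. As a ratio to the sum of all 9, Ucp1 came to 0.0760 and 0.191 at 22 °C, 0.488 and 0.490 at 4 °C, 0.349 and 0.393 in NCD and 0.257 and 0.283 in HFD. On this ratio both HFD libraries lay below both NCD libraries. The ratio of Ucp1 to Adipoq overlapped between NCD (6.18 and 7.74) and HFD (6.21 and 6.17), as did that to Cox8b (1.48 and 1.92 against 1.87 and 1.46), so the order of the diet groups depended on the partner gene. The ratio to Cidea came to 1.26 and 2.87 at 22 °C and to 11.1 and 9.40 at 4 °C. It was 3.15 and 3.03 in NCD and 4.36 and 7.23 in HFD, so that against Cidea, which was itself lower in HFD, both HFD libraries lay above both NCD libraries. The related carriers stood far lower, with Ucp2 at 4.72 to 29.8 FPKM and Ucp3 at 21.2 to 31.4 FPKM over the 8 libraries. Ucp2, which is expressed in many immune cells, was higher in both 4 °C libraries (14.7 and 29.8 against 4.72 and 5.63 FPKM, log2 fold change 1.84, adjusted p 0.0622) and in both HFD libraries (15.2 and 16.4 against 4.78 and 4.83 FPKM, log2 fold change 1.53, adjusted p 0.151), by limma.

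Cidea (ENSMUSG00000024526, chr18:67343564-67367794, plus strand) ranked 11 to 84 among autosomal mRNA genes. It stood at 556 and 498 FPKM at 22 °C, at 581 and 572 FPKM at 4 °C, at 1116 and 759.8 FPKM in NCD and at 464 and 412 FPKM in HFD. The 4 groups did not overlap, in the order HFD, 22 °C, 4 °C and NCD, though the highest 22 °C library (556 FPKM) and the lowest 4 °C library (572 FPKM) were close. The HFD to NCD log2 fold change was -1.07 (SE 0.66, 95% interval -2.61 to 0.47, limma adjusted p 0.513) and -1.43 after median centring. It passed with library kind as a covariate (adjusted p 0.0483, range over alternatives 0.0483 to 1.0), and its sign held in all 18 alternatives. The cold value of 0.13 (SE 0.30, adjusted p 0.823) turned negative under median centring (-0.13) and 3 other scalings. The ratio to Cidec, the family member of white and brown lipid droplets, was 1.52 and 1.60 in NCD and 1.11 and 0.804 in HFD, which did not overlap. Cidec itself did overlap between NCD (733 and 475 FPKM) and HFD (418 and 512 FPKM).

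The transcription regulators stood far below Ucp1, at 0.534 to 12.6 FPKM. Prdm16 (ENSMUSG00000039410, chr4:154316125-154636873, minus strand) stood at 4.54 and 8.03 FPKM at 22 °C, at 3.12 and 3.72 FPKM at 4 °C, at 2.2 and 2.14 FPKM in NCD and at 2.57 and 2.44 FPKM in HFD. No groups overlapped, and all 6 libraries of the other groups, at 2.14 to 3.72 FPKM, lay below both 22 °C libraries. The cold log2 fold change was -0.68 (SE 0.28, 95% interval -1.39 to 0.03, limma adjusted p 0.216), -0.94 after median centring, and it stayed negative in all 18 alternatives. It came to -0.23 between the Gm10800-high libraries and -1.13 between the Gm10800-low ones. The HFD to NCD value was 0.14 (SE 0.26, adjusted p 0.839) and -0.21 after median centring. Within libraries, the ratio of Prdm16 to its paralog Mecom came to 1.55 and 1.87 at 22 °C, 1.01 and 1.2 at 4 °C, 0.635 and 0.647 in NCD and 0.591 and 0.435 in HFD.

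Ebf2 (ENSMUSG00000022053, chr14:67233292-67430918, plus strand) had the same ordering of the 22 °C group above the rest. It stood at 10.3 and 12.6 FPKM at 22 °C and at 9.04 and 9.41 FPKM at 4 °C, and the 4 diet libraries spanned 7.31 to 9.56 FPKM. The cold log2 fold change was -0.28 (SE 0.20, limma adjusted p 0.425), -0.54 after median centring. It came to -0.12 between the Gm10800-high libraries, -0.44 between the Gm10800-low ones and -0.42 to -0.14 with 1 library left out. The HFD to NCD value was 0.03 (SE 0.34, limma adjusted p 0.980), -0.33 after median centring. Its paralog Ebf1 was higher in both 4 °C libraries (19.8 and 14.2 against 12.4 and 11.4 FPKM, log2 fold change 0.46, adjusted p 0.283). The Ebf2 to Ebf1 ratio was accordingly lower in both, at 0.457 and 0.664 against 0.830 and 1.11.

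Zic1 and Lhx8 were the lowest members. Zic1 (ENSMUSG00000032368, chr9:91358058-91365810, minus strand) stood at 1.38 and 2.12 FPKM at 22 °C, at 2.45 and 2.70 FPKM at 4 °C, at 1.94 and 1.21 FPKM in NCD and at 1.17 and 1.48 FPKM in HFD. The Zic4 gene overlaps it on the opposite strand and was at most at 0.545 FPKM. The cold log2 fold change of Zic1 was 0.39 (SE 0.20, limma adjusted p 0.290), 0.13 after median centring, 0.64 between the Gm10800-high libraries, 0.15 between the Gm10800-low ones and 0.20 to 0.59 with 1 library left out, and that between HFD and NCD was -0.14 (SE 0.24, adjusted p 0.836), -0.49 after median centring. Lhx8 (ENSMUSG00000096225, chr3:154306294-154330659, minus strand) stood at 1.21 and 1.09 FPKM at 22 °C, at 1.19 and 1.37 FPKM at 4 °C, at 0.822 and 0.551 FPKM in NCD and at 0.534 and 0.796 FPKM in HFD. Its fold changes were 0.08 (SE 0.14, adjusted p 0.750) in the cold and -0.02 (SE 0.16, adjusted p 0.972) under HFD on the log2 scale, or -0.18 and -0.37 after median centring, and with 1 FPKM added before the logarithm both are understated at this level. The 4 diet libraries lay below the 4 temperature libraries.

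Cox7a1 and Cox8b encode subunits of complex IV that heart, skeletal muscle and brown fat use in place of the widespread forms Cox7a2 and Cox8a. Cox7a1 (ENSMUSG00000074218, chr7:30184144-30186078, plus strand) stood at 478 and 583 FPKM at 22 °C, at 790.3 and 855 FPKM at 4 °C, at 1268 and 591 FPKM in NCD and at 598 and 1015 FPKM in HFD. Both 4 °C libraries were above both 22 °C libraries, with a log2 fold change of 0.64 (SE 0.32, 95% interval -0.17 to 1.44, limma adjusted p 0.284), 0.38 after median centring. NCD and HFD overlapped (-0.15, SE 0.75, adjusted p 0.947, and -0.51 after median centring). Cox8b (ENSMUSG00000025488, chr7:140898945-140900446, minus strand) ranked 5 to 13 among autosomal mRNA genes. It stood at 968 and 1182 FPKM at 22 °C, at 1442 and 1050.4 FPKM at 4 °C, at 2378 and 1196 FPKM in NCD and at 1084 and 2043 FPKM in HFD. It overlapped in both comparisons (cold 0.20, SE 0.38, adjusted p 0.782, and -0.06 after median centring; HFD to NCD -0.18, SE 0.82, adjusted p 0.942, and -0.54 after median centring). Both genes were highest in NCD replicate 6, the library with the highest Cidea as well.

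In FPKM the tissue-restricted forms exceeded their widespread partners in every library, though the Cox8b ratio was only 1.05 in 4 °C replicate 11. The longest transcripts of Cox7a1 and Cox8b have 485 and 360 bases, and FPKM of transcripts this short depend strongly on the length correction. The FPKM ratio of Cox7a1 to Cox7a2 came to 1.73 and 1.70 at 22 °C, 1.87 and 2.2 at 4 °C, 2.62 and 2.29 in NCD and 2.36 and 2.46 in HFD. That of Cox8b to Cox8a came to 1.2 and 1.18 at 22 °C, 1.41 and 1.05 at 4 °C, 1.89 and 2.06 in NCD and 1.66 and 2.0 in HFD. Both ratios overlapped between NCD and HFD, and at 4 °C that of Cox7a1 exceeded both 22 °C values in each library. Cox7a1 stood at 0.493 to 0.552 times Cox8b in 7 libraries and at 0.814 times in 4 °C replicate 11. Of 8 further complex IV subunits tested, 0 passed in either comparison by limma. An unadjusted p under 0.05 was found for 2 in the cold and 1 under HFD, and for 4280 of 17477 and 2532 of 17543 genes. In the cold 6 of the 8 lay higher in both 4 °C libraries (37.9% of all genes did). In HFD 0 lay higher in both libraries (39.9% of all genes did), and 2, Cox6a1 and Cox6a2, lay lower in both (5.8% of all genes did). Their median log2 fold change was 0.41 in the cold and -0.20 under HFD. The muscle form Cox6a2 stood apart, at 8.47 and 1.39 FPKM at 22 °C, 71.3 and 43.4 FPKM at 4 °C, 9.48 and 32.1 FPKM in NCD and 3.99 and 0.607 FPKM in HFD. Cox4i1 was not analysed here, and Cox7b is X-linked and was not tested.

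**Figure D2:**
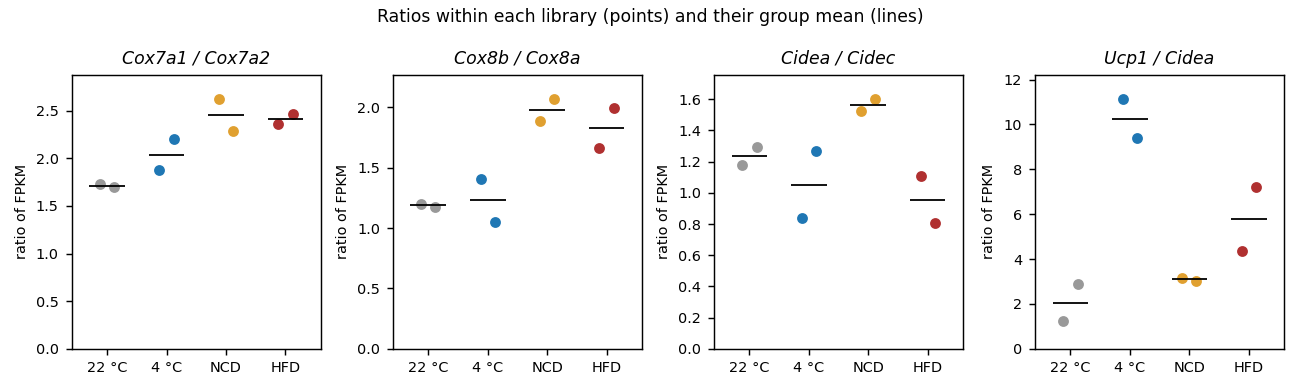
Ratio of FPKM between a member and a partner gene within each library (vertical axis from 0, no unit), with 1 point per library and a line at the group mean. The ratio of Ucp1 to Cidea is highest at 4 °C (11.1 and 9.40), that of Cidea to Cidec is highest in NCD (1.52 and 1.60), and the ratios of Cox7a1 and Cox8b to their widespread partners overlap between NCD and HFD.

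The channels differed from one another in their order over the groups. Otop1 (ENSMUSG00000051596, chr5:38275972-38304217, plus strand) stood at 22.8 and 42.5 FPKM at 22 °C, at 48.6 and 57.4 FPKM at 4 °C, at 60.1 and 43.3 FPKM in NCD and at 43.6 and 57.6 FPKM in HFD. The 22 °C group was the lowest, and the 3 others overlapped. The cold log2 fold change was 0.74 (SE 0.34, 95% interval -0.11 to 1.60, limma adjusted p 0.250), 0.49 after median centring, and it came to 1.30 between the Gm10800-high libraries and 0.19 between the Gm10800-low ones. That between HFD and NCD was -0.03 (SE 0.46, adjusted p 0.986), -0.38 after median centring.

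Kcnk3 (ENSMUSG00000049265, chr5:30588170-30625271, plus strand) stood at 43.1 and 50.4 FPKM at 22 °C, at 96.8 and 92.7 FPKM at 4 °C, at 39.1 and 38.4 FPKM in NCD and at 21.3 and 21.8 FPKM in HFD. The 4 groups did not overlap and were ordered HFD, NCD, 22 °C and 4 °C from low to high. The cold log2 fold change was 1.01 (SE 0.22, 95% interval 0.45 to 1.57, limma adjusted p 0.0777) and 0.75 after median centring, and it was between 0.48 and 1.12 over the alternatives. It passed with library kind as a covariate (adjusted p 0.0474) and in no other tested alternative, and its adjusted p reached 0.734 among them. Between HFD and NCD the log2 fold change was -0.82 (SE 0.39, 95% interval -1.73 to 0.10, adjusted p 0.395), -1.17 after median centring. It was negative in all 18 alternatives and passed in 0 of 16, with adjusted p from 0.0265 to 1.0. A gene model on the opposite strand, Gm9899, overlaps the start of Kcnk3 and reached 11 FPKM, and whether the counting used strand is not given in the sources used here. The Kcnk3 to Otop1 ratio was 0.650 and 0.887 in NCD and 0.489 and 0.379 in HFD.

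**Figure D3:**
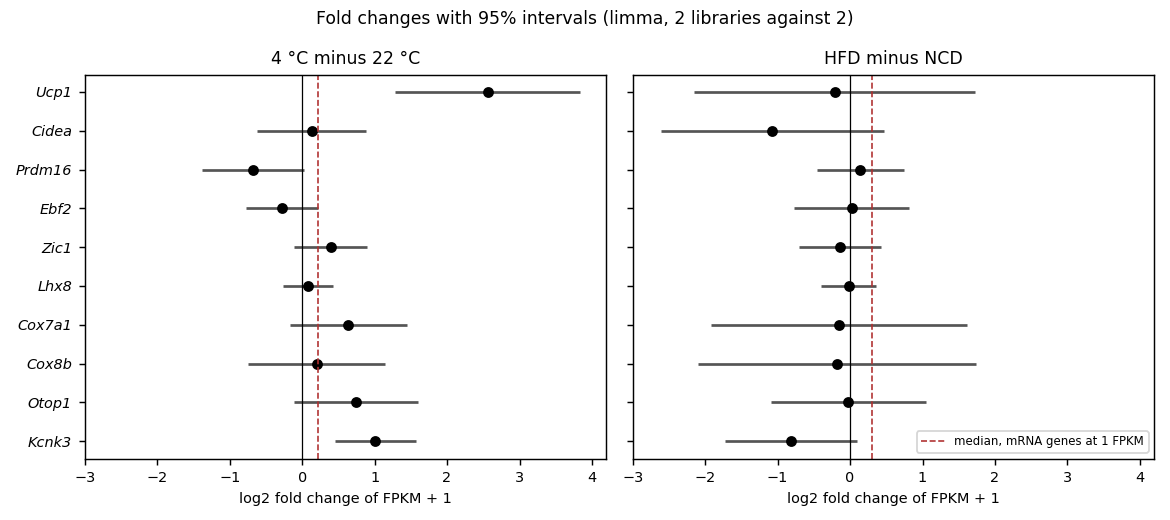
Log2 fold change of FPKM + 1 for each member (points, horizontal axis) with its 95% interval (lines) at 4 °C against 22 °C (left) and in HFD against NCD (right), 2 libraries per group. The dashed line is the median of mRNA genes at 1 FPKM or more (0.22 and 0.30), and the intervals of Ucp1 and Kcnk3 in the cold lie above 0.

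Some members also separated the diet groups from the 22 °C group. Ucp1, Cox7a1 and Otop1 were higher in all 4 NCD and HFD libraries than in the 22 °C libraries, where 8.79% of 18389 genes were, and Prdm16, Ebf2, Lhx8 and Kcnk3 were lower in all 4, where 10.7% were. These groups differ in age, in feeding and, for 3 of the 4 diet libraries, in the prefix of the description label and in whether X-linked and mitochondrial genes are listed, which cannot be told apart, and no test was run.

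Members did not share a single pattern over the 8 libraries. Likeness was measured as the root mean square difference between log2(FPKM + 1) values, each gene centred on its own mean, over members with a mean of at least 1 FPKM (all but Lhx8). The closest pairs were Cox7a1 with Cox8b (0.23), Cox7a1 with Otop1 (0.24), Ebf2 with Zic1 (0.26) and Prdm16 with Ebf2 (0.32). Ucp1 was closest to Otop1 (0.67) and farthest from Prdm16 (1.26). Across 10876 autosomal genes the median difference from Ucp1 was 0.94, and Otop1 ranked 484 by closeness.

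The 5 genes nearest to Ucp1 by this measure were Letm1 (0.23), Fbp2 (0.23), Hacd2 (0.29), Slc25a17 (0.31) and Ctsz (0.33). Letm1 encodes an inner mitochondrial membrane protein and stood at 15.5 and 27.5 FPKM at 22 °C, 95.2 and 81.4 FPKM at 4 °C, 56.0 and 32.4 FPKM in NCD and 29.7 and 43.7 FPKM in HFD. Fbp2, a fructose bisphosphatase, stood at 4.59 and 8.08 FPKM at 22 °C, 30.6 and 31.2 FPKM at 4 °C, 22.8 and 12.2 FPKM in NCD and 10.4 and 12.8 FPKM in HFD. Hacd2, a dehydratase of fatty acid elongation, went from 5.22 and 8.29 FPKM at 22 °C to 54.5 and 48.8 FPKM at 4 °C. Each of the 5 had its lowest libraries at 22 °C and its highest at 4 °C. They were chosen for their likeness over these libraries, so no test is given for them.

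**Figure D4:**
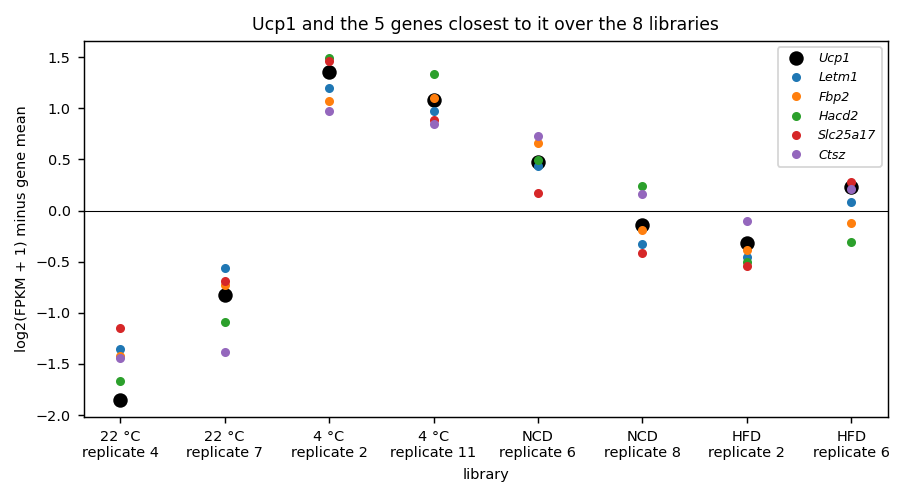
Log2(FPKM + 1) minus the gene's own mean (vertical axis) in each of the 8 libraries (horizontal axis) for Ucp1 (large black points) and the 5 genes closest to it. All 6 genes are lowest in the 22 °C libraries and highest in the 4 °C libraries.

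Other brown fat genes and their regulators were described from a list of 26, chosen with earlier results of these data known. In the cold 6 of the 26 rose past the threshold and 0 fell, where 1.44% of all genes passed. Both 4 °C libraries were higher for 19 (37.9% of all genes) and lower for 1, the purinergic receptor gene P2rx5 (20.6% of all genes), with a median log2 fold change of 0.95. Dio2, the deiodinase that makes active thyroid hormone within brown fat, rose from 20.6 and 21.4 to 162 and 193 FPKM (log2 fold change 3.01, SE 0.22, adjusted p 0.0196). Ppargc1a, the coactivator of mitochondrial biogenesis, rose from 10.9 and 10.8 to 107 and 73.6 FPKM (2.92, SE 0.25, adjusted p 0.0208). The elongase gene Elovl3 rose from 7.59 and 27.1 to 547 and 252 FPKM (4.58, SE 0.66, adjusted p 0.0467). The others by limma were Irf4, a transcription partner of PGC-1α (2.40, adjusted p 0.0467), the secreted factor gene Bmp8b (1.0, adjusted p 0.0215) and the small heat shock protein gene Hspb7 (4.57, adjusted p 0.0208), which is also a muscle gene. Bmp8b was low, at 0.0826 and 0.0528 FPKM at 22 °C and 1.05 and 1.23 FPKM at 4 °C, so the added 1 FPKM understates its fold change. The receptor gene Adrb3, through which sympathetic signals reach brown adipocytes, overlapped at 31.3 and 23.8 against 22.8 and 23.9 FPKM (-0.22, adjusted p 0.584).

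Under HFD, 0 of the 26 passed by limma, where 0.0684% of all genes did. An unadjusted p under 0.05 was found for 7 of them, and for 2532 of 17543 genes. Of the 26, 8 were higher in both HFD libraries, where 39.9% of all genes were, and 7 lower in both, where 5.8% were. The median was 0.14. The values farthest from 0 were those of Elovl3, at 234 and 118 FPKM in NCD and 18.1 and 17.8 FPKM in HFD (log2 fold change -3.14, SE 0.50, limma adjusted p 0.118), and of the fatty acid transporter gene Slc27a2, at 89.3 and 81.5 against 35.4 and 32.3 FPKM (-1.31, SE 0.43, adjusted p 0.245). Irf4 (-1.09) and Acot11 (-1.08) were also lower in both HFD libraries, and the corepressor gene Tle3 was higher in both (1.12, adjusted p 0.207). Of 21 paralogs and isoform partners of the members, 13 could be tested, and 0 passed in either comparison (1.44% and 0.0684% of all genes did). By limma 1 in the cold and 2 under HFD had an unadjusted p under 0.05. Over all genes 4280 of 17477 and 2532 of 17543 did.

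Markers of other cell types moved with both comparisons. In the cold, 11 of 11 skeletal muscle markers were higher in both 4 °C libraries, where 37.9% of all genes were. The markers' median log2 fold change was 3.37, and their summed FPKM was 145 to 594 at 22 °C and 2052 to 4605 at 4 °C. By limma 0 of the 11 passed the threshold and 11 had an unadjusted p under 0.05, as did 4280 of 17477 genes. Under HFD, 10 of the 11 muscle markers were lower in both HFD libraries, where 5.8% of all genes were. The median over the 11 was -3.67, with sums of 616 to 1594 in NCD and 40.2 to 212 in HFD. By limma 0 passed the threshold and 10 had an unadjusted p under 0.05, as did 2532 of 17543 genes. No muscle marker was listed at 0. With a muscle marker score as a covariate over all 8 libraries, the cold log2 fold changes of Ucp1, Kcnk3, Cox7a1, Cox8b, Otop1 and Zic1 were 3.51, 1.12, 1.65, 1.12, 1.60 and 0.86, that of Ebf2 turned to 0.16 and that of Prdm16 was -0.33. In the same fit the HFD to NCD values moved to -1.20 for Ucp1, -1.19 for Cox7a1, -1.13 for Cox8b, -0.91 for Otop1, -0.62 for Zic1, -0.43 for Ebf2, -0.24 for Lhx8 and -0.22 for Prdm16, while those of Cidea and Kcnk3 were -1.09 and -0.94. No member passed the threshold in it (0 of 10 in either comparison). All 6 macrophage markers were higher in both HFD libraries, where 39.9% of all genes were, as were 6 of 7 preadipocyte and fibroblast markers. Medians were 1.62 and 0.71, and the macrophage sums were 38.4 to 108 in NCD and 189 to 242 in HFD. None of these markers passed the threshold and none was at 0. By limma 6 macrophage and 3 preadipocyte and fibroblast markers had an unadjusted p under 0.05, as did 2532 of 17543 genes. Endothelial markers summed to 99.3 to 114 FPKM in NCD and 158 to 190.3 FPKM in HFD (4 of 6 higher in both, median 0.70). Erythroid markers summed to 99.6 to 156 FPKM in NCD and 194 to 393 FPKM in HFD (1 of 2 tested higher in both). Over all genes 39.9% were higher in both. The erythroid gene Alas2 is X-linked and was not tested. NCD replicate 6 lists all X-linked genes at 0, so its erythroid sum lacks Alas2. By limma 0 endothelial and 1 erythroid marker had an unadjusted p under 0.05, as did 2532 of 17543 genes. The part of these cells in the HFD values of the members was not tested. Of 7 white adipocyte markers tested, 5 were higher and 1 was lower in both 4 °C libraries (37.9% and 20.6% of all genes), and their summed level was 80.9 to 143 FPKM at 22 °C and 227 to 346 FPKM at 4 °C. Nnmt rose in the cold (2.33, adjusted p 0.0278), and Lep, the leptin gene, was the lower 1 (-2.13, adjusted p 0.0527). Under HFD 5 were higher (39.9% of all genes) and 0 lower (5.8% of all genes) in both libraries. Lep rose from 2.93 and 0.307 to 61.7 and 83.5 FPKM (5.0, limma adjusted p 0.0425). Sncg (2.93), Nnmt (1.90) and Wfdc21 (1.51) were also higher in both without passing the threshold. The summed level of the white markers was 22.3 to 55.0 FPKM in NCD and 229 to 249.3 FPKM in HFD. Tcf21, Hoxc10, Hoxc9 and Wt1 were at 0 in at least 1 library.

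**Figure D5:**
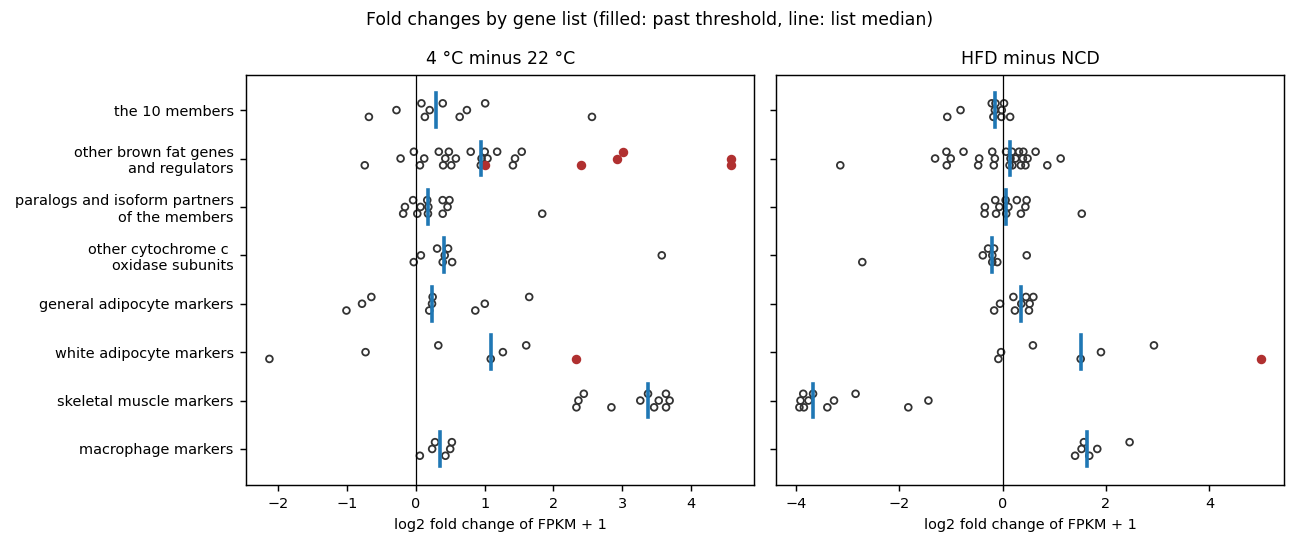
Log2 fold change of FPKM + 1 (horizontal axis) for each gene tested (points) in the members and 7 lists, at 4 °C against 22 °C (left) and in HFD against NCD (right), with the list median as a vertical bar and genes past the threshold filled. Muscle markers lie to the right in the cold (median 3.37) and to the left under HFD (median -3.67), while the members lie around 0.30 and -0.15.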

How the data were processed

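BAT RNA was depleted of ribosomal RNA, made into directional libraries and sequenced as paired ends. The authors mapped reads to GRCm38 with TopHat2 2.0.10 on Ensembl genes and obtained gene values with Cufflinks, whose version is 2.2.1 in the submitters' processing notes. The deposited table holds these FPKM values, 1 per gene and library. Its header does not name the unit, which comes from the methods and the spacing of low values. The authors' test was DESeq2 on counts, which were not used here.

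Members were matched by symbol, and gene types came from GENCODE M21 (49195 of 49452 genes matched). FPKM + 1 was taken to log2 and fitted with limma 3.58.1 in R 4.3.3 (eBayes with an intensity trend), using only the 4 libraries of a comparison and no covariate. Tested were genes on the 19 autosomes that reached 0.1 FPKM in 2 or more of these libraries. P-values are two-sided with Benjamini-Hochberg adjustment over all of them, and a gene passed at an adjusted p under 0.05 and a fold change of 2 or more either way. A count model was planned for a table of counts and was not needed. The script was tested on simulated data. The added 1 FPKM understates fold changes of low genes.

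Named genes are the members, their paralogs, list genes past the threshold or, without overlap of the groups, with at least a 2-fold difference (at most 5 per list and comparison), and the 5 genes closest to Ucp1. P2rx5, Adrb3, Cox6a1, Adipoq, Cebpa and Alas2 fall outside this rule and were chosen after their values were seen. Plin1, Tmem26 and Tbx1, named as examples of their lists, also fall outside it. So do Tcf21, Hoxc10, Hoxc9 and Wt1, named for values of 0, and Cox4i1 and Cox7b, named as not tested. The members and all lists were chosen with earlier results of these data known. Alternatives covered pseudocount, filter, chromosomes, scaling, samples in the fit, intensity trend, 2 covariates and leaving out each of the 8 libraries. Groups of 2 libraries give little precision, and FPKM carry no counting interval. Lists of lymphoid, endothelial and erythroid markers summed to at most 1.34, 223 and 393 FPKM in any library, and 0 of their genes passed in limma. In the cold 2, 3 and 0 of them had an unadjusted p under 0.05, as did 4280 of 17477 genes. Under HFD 0, 0 and 1 did, as did 2532 of 17543 genes. A further marker list is not reported here.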

Additional observations from a re-analysis of the deposited data

How the results depend on the processing

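No paired analysis was possible because the 22 °C and 4 °C libraries share 0 replicate numbers and the NCD and HFD libraries share 1. The covariate for library kind matches libraries on measured Gm10800, not on a replicate number. With 2 libraries per group, counts over all genes depended heavily on the fit. In the cold 252 genes passed, against 474 with a pseudocount of 0.1, 6 with no filter, 529 with a 1 FPKM filter, 920 with X, Y and mitochondrial genes kept, 491 after quantile normalization, 758 after median centring, 582 and 550 after rescaling to the autosomal sum or to the sum without mitochondrial genes, rRNA genes and Ucp1, 439 with all 8 libraries in 1 fit, 0 with no intensity trend, 859 with library kind (Gm10800) and 0 with the muscle score as a covariate, and 0 to 246 when 1 library was left out (246 without 22 °C replicate 4, 122 without 22 °C replicate 7 and 0 without either 4 °C library). Between HFD and NCD 12 passed, against 15 with a pseudocount of 0.1, 24 with a 1 FPKM filter, 45 after median centring, 75 with all 8 libraries, 745 with library kind, 1 with the muscle score, 0 in the other fits on 4 libraries, and 122 to 751 when 1 library was left out (751 without NCD replicate 6, which leaves libraries of 1 description prefix, 243 without NCD replicate 8, 366 without HFD replicate 2 and 122 without HFD replicate 6). A fit without 1 library has no replicate in that group and assumes it to vary like the other, so its counts do not measure stability. Of the members, 1 passed in the cold (Ucp1) with a 1 FPKM filter, with X, Y and mitochondrial genes kept and after median centring, 2 (Ucp1 and Kcnk3) with library kind, and 0 to 1 when 1 library was left out. Under HFD 1 (Cidea) passed with library kind. The causes were not tested.

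Directions of Ucp1, Prdm16, Zic1, Cox7a1, Otop1 and Kcnk3 in the cold and of Cidea and Kcnk3 under HFD were the same in every alternative. Cold log2 fold changes turned negative under quantile normalization, median centring, and the rescalings to the autosomal sum and to the sum without mitochondrial genes, rRNA genes and Ucp1 for Cidea (-0.42, -0.13, -0.29 and -0.32), Lhx8 (-0.0029, -0.18, -0.14 and -0.16) and Cox8b (-0.079, -0.056, -0.22 and -0.25), and that of Ebf2 was 0.16 with the muscle score. That of Cox8b was -0.026 without 4 °C replicate 2. Between HFD and NCD, quantile normalization gave 0.0091 for Ucp1, -0.19 for Prdm16, -0.29 for Ebf2 and 0.048 for Cox8b. Median centring gave -0.21 for Prdm16 and -0.33 for Ebf2, both rescalings gave -0.12 for Ebf2, and the muscle score gave -0.22 for Prdm16 and -0.43 for Ebf2. Within Gm10800-high libraries the values were -0.012 for Ebf2, 0.017 for Cox7a1 and 0.0091 for Otop1.
With 1 library left out, the HFD to NCD values were -0.52 to 0.094 for Ucp1, -0.15 to 0.20 for Ebf2, -0.35 to 0.066 for Zic1, -0.13 to 0.10 for Lhx8, -0.70 to 0.40 for Cox7a1, -0.68 to 0.31 for Cox8b and -0.26 to 0.21 for Otop1, and the cold values of Cox8b were -0.03 to 0.43.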

Other observations

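Ucp1 exceeded Ucp3 by 31.5 and 49.4 times in the 22 °C libraries and by 206 and 203 times in the 4 °C libraries, with 144 and 75.0 times in NCD and 95.5 and 139 times in HFD. Kcnk3 stood at 0.0775 and 0.101 times Cidea at 22 °C, 0.166 and 0.162 times at 4 °C, and 0.0350 to 0.0530 times in the 4 diet libraries.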
